A study of Phyllostachys edulis with 2 samples.

Results

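Proteins that splice and process RNA were followed in lateral buds of the rhizome of Moso bamboo (Phyllostachys edulis) at 2 stages. A transcript was taken when its protein description named splicing, an snRNP or other ribonucleoprotein, a protein rich in arginine and serine, an RNA helicase or DEAD-box protein, poly(A), polyadenylation, pre-mRNA or RNA binding. This rule, which used no measured value, found 146 of 148492 transcripts, in 63 of 85391 loci. In 53 loci the description names a protein of these kinds. In the other 10 the word splicing or splice only forms part of the name or note of another protein, such as a receptor-like kinase, and these loci were counted apart.

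All buds were wild type and were collected underground, either at the early shoot stage or at the germination stage. Buds of different rhizomes were pooled into a single library for each stage, so no difference has a replicate check and stage cannot be told apart from the pool or the library. In total 7878826 reads were counted in early shoot and 4481221 in germination. In such bulk tissue, fewer cells of a type and less RNA per cell cannot be told apart.

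Introns are removed from pre-mRNA by the spliceosome, which is built on each intron from the U1, U2, U4/U6 and U5 snRNPs. SR proteins bind exons and help U1 and U2 to find the splice sites, and RNA helicases drive the exchange of RNA pairings from step to step. The transcript is then cut and given a poly(A) tail by poly(A) polymerase, and poly(A)-binding proteins hold the tail in translation and decay. In plants, SR proteins and U1-70K are themselves well known for giving several spliced forms.

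For each locus the reads of its matching transcripts were summed in each library. The log2 ratio is early shoot over germination after scaling, so that positive values are higher in early shoot. The interval in parentheses is the exact 95% interval of the split of the reads, which covers counting error only. The G-fold value is the 0.01 quantile of the ratio nearest 0, and it is 0 where counting error alone leaves the direction unknown. A locus is described as higher or lower when its G-fold value lies above or below 0, and as called when it passes 1.0 in either direction with RPKM (reads per kilobase and per unit of library size, as deposited) above 1.0 in both libraries.

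All 63 member loci had RPKM above 1.0 in both libraries. The background counts were taken over the 68834 loci, of all 85391, and the 120465 transcripts that pass this RPKM cutoff, which 145 of the 146 member transcripts do. None of the 63 was called higher in early shoot, against 1.39% of background loci, and 3 were called lower (4.76%), against 3.7%. Under the 5 other scalings of the libraries 1 or 2 members were called higher, Locus_9144 under each and Locus_10305 under some. Of the 3 called lower, 1 is named as an RNA processing protein, the nucleolar Nop10p-like protein. With the direction alone, 19 member loci (30.2%) were higher in early shoot and 15 (23.8%) lower, against 10.1% and 12.7% of background loci. Most loci of the assembly hold few reads. Of the 47 member loci with at least 100 reads, 19 (40.4%) were higher and 12 (25.5%) lower, against 35.7% and 30.2% of all loci at that depth, and the shares of members thus lay near this background. The median log2 ratio of these 47 was 0.10, compared with 0.08 over the 12988 loci with at least 100 reads.
Since the background counts all transcripts of a locus, the members were also read in that way. Of 55 member loci with at least 100 reads over all transcripts, 2 (3.64%) were called higher and 2 (3.64%) lower in early shoot, against 5.91% and 10.1% of all such loci, and 22 (40.0%) were higher and 15 (27.3%) lower in direction. Those called higher were Locus_10305 and Locus_2530, the latter counted apart and called lower by its matching transcript. Those called lower were Locus_6666 and Locus_4345. Transcript by transcript, 0 of 145 members were called higher and 4 (2.76%) lower, against 1.4% and 3.77% of all transcripts, and 32 (22.1%) and 27 (18.6%) lay above and below 0, against 12% and 13.5%. Among the 101 with at least 100 reads, 0 were called higher and 1 (0.990%) lower, against 4.29% and 7.74%, and 28 (27.7%) and 19 (18.8%) lay above and below 0, against 29.6% and 25%.

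**Figure D1:**
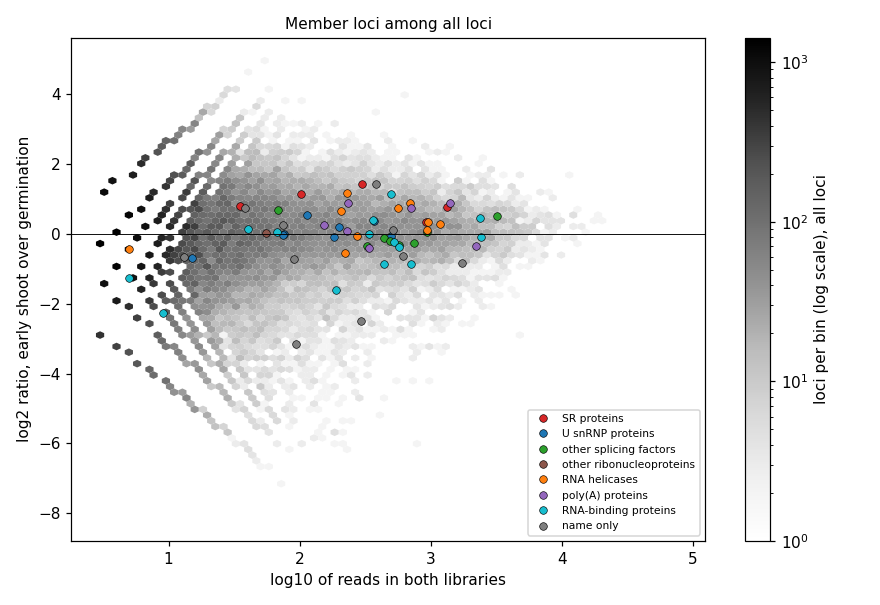
Log2 ratio (early shoot over germination) of each locus against the log10 of its reads in both libraries. Grey bins count all loci with at least 3 reads, on a log scale, and coloured points are the 63 member loci by protein group (name only, the 10 loci counted apart). The 63 members spread on both sides of 0, and 3 of them have G-fold values below -1.0.

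Each of 5 other scalings of the libraries raised every log2 ratio, by 0.03 to 0.09. The 19 loci on the side of early shoot therefore could not leave it, so these scalings do not test them. Of the 15 on the side of germination 9 stayed there under each scaling, and the other 6 were at 0 under at least 1. Summed over all members, 22316 reads were counted in early shoot and 11684 in germination, a log2 ratio of 0.09 (0.05 to 0.12). Without the 10 loci counted apart the sums were 20239 and 9920 reads and the log2 ratio was 0.18 (0.15 to 0.22). The groups differed more among themselves than these sums show.

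**Figure D2:**
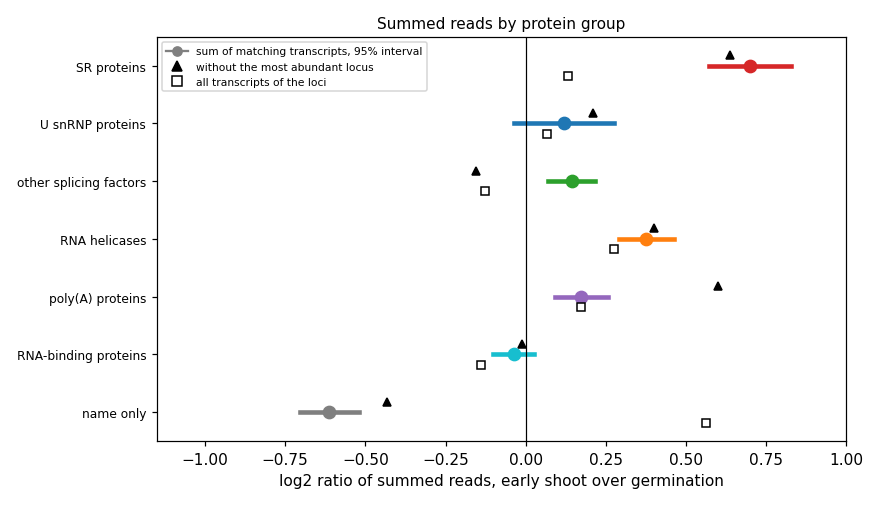
Log2 ratio of the summed reads of each protein group, early shoot over germination. Coloured points and bars are the sums of matching transcripts with the 95% interval of counting error, triangles leave out the most abundant locus, and open squares sum all transcripts of the loci. SR proteins (0.70), RNA helicases (0.38), poly(A) proteins (0.17) and U snRNP proteins (0.12, with an interval across 0) lie to the right of 0 in each form. Other splicing factors and the loci counted apart (name only) change side.

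Of the 8 groups, SR proteins had the largest share of loci on the side of early shoot. Of 5 loci, 4 were higher in early shoot and 1, with 27 reads in early shoot and 8 in germination, had an interval across 0. Their summed reads were 1998 in early shoot and 684 in germination, with a log2 ratio of 0.70 (0.57 to 0.83). None of the 5 was called. With all transcripts of these loci the log2 ratio of the group was 0.13, through a single locus of SF2.
The largest ratio belonged to the locus matched to splicing factor, arginine/serine-rich 2 of maize (Locus_10305). Its matching transcript had 248 reads in early shoot and 50 in germination, and the RPKM was 17.6 in early shoot and 6.25 in germination. The log2 ratio was 1.44 (1.02 to 1.93) and the G-fold value 0.95, just under the threshold, which it passed with up to 1.03 under other scalings. The 9 other transcripts of the locus carry no protein name, and they moved in the same direction. With all 10 transcripts, 1933 reads in early shoot and 348 in germination gave a G-fold value of 1.43.
The locus matched to arginine/serine-rich 7 (Locus_477) had 82 reads in early shoot and 20 in germination, a log2 ratio of 1.13 (0.47 to 1.97). The locus of RSP41 (Locus_69346), an SR protein first described in Arabidopsis, is the one with 27 reads in early shoot.

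SF2 is the founding SR protein, known in animals for its part in the choice of 5′ splice sites, and it was matched by 2 loci. In Locus_2367, 636 reads were counted in early shoot and 277 in germination, a log2 ratio of 0.35 (0.15 to 0.56). Its 5 matching transcripts had log2 ratios from 0.04 to 0.78, and its other 6 transcripts together had 0.34, so the whole locus moved alike.
Locus_293 did not. Its 2 matching transcripts, of 1241 and 1243 bp, had 414 and 591 reads in early shoot, against 129 and 200 reads in germination. Their log2 ratios were 0.83 and 0.71, and 0.76 (0.58 to 0.95) together. The 31 other transcripts of the same locus together went the opposite way, with 1682 reads in early shoot and 1784 in germination and a log2 ratio of -0.93 (-1.03 to -0.84). Most of that came from transcript 33, of 1682 bp and with no protein match. It had 244 reads in early shoot and 889 in germination, a log2 ratio of -2.71 (-2.92 to -2.51). Transcript 25, of 1108 bp and also unmatched, had 127 reads in early shoot and 389 in germination (-2.46). Transcript 32, of 1132 bp, stood on the other side, with 395 reads in early shoot and 68 in germination (1.67, from 1.32 to 2.08). With all 33 transcripts the log2 ratio of the locus was -0.50, and with transcript 33 left out it was 0.15. The direction of this SF2 locus therefore depends on which of its transcripts are counted. Whether the assembler joined more than 1 gene here is not known.

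The proteins of the U snRNPs lay close to the scaling of the libraries. Among 8 loci, 1 was higher in early shoot and 0 lower, and their summed reads, 1009 in early shoot and 516 in germination, had a log2 ratio of 0.12 (-0.03 to 0.28). U1-70K, the U1 protein that SR proteins contact at the 5′ splice site, was matched by 4 loci, and these held the larger ratios of the group. Its longest transcript with that match (Locus_2944, 1328 bp) had 258 reads in early shoot and 110 in germination, a log2 ratio of 0.37 (0.05 to 0.72). Its G-fold value of 0.0019 was barely above 0. The other 3 loci ranged from -0.01 to 0.53, each with an interval across 0. Together the 4 had 524 reads in early shoot and 233 in germination, a log2 ratio of 0.32 (0.10 to 0.55). They share 1 best match, so that reads of near-identical copies may have been split among them.
Within Locus_2944 the forms were not alike. Transcripts 13 and 15, of 1690 and 1702 bp, had log2 ratios of 0.70 and 0.63, whereas transcript 16, of 1376 bp, had 367 reads in early shoot and 257 in germination (-0.34, from -0.57 to -0.10). All 18 transcripts together had 0.10.
The most abundant locus of the group, a component of the U5 snRNP that holds the exons for joining (Locus_5712), had 314 reads in early shoot and 182 in germination and a log2 ratio of -0.06 (-0.33 to 0.21). The large subunit of the U2 auxiliary factor, which binds the pyrimidine tract before the 3′ splice site (Locus_11336), had 115 reads in early shoot and 67 in germination (-0.08, from -0.52 to 0.39). For the snRNP core protein G (Locus_51507), 8 reads in early shoot and 7 in germination were too few to detect a difference, and a locus named only as U1 snRNP (Locus_6739) had 48 reads in early shoot and 27 in germination (-0.04, from -0.73 to 0.72).

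**Figure D3:**
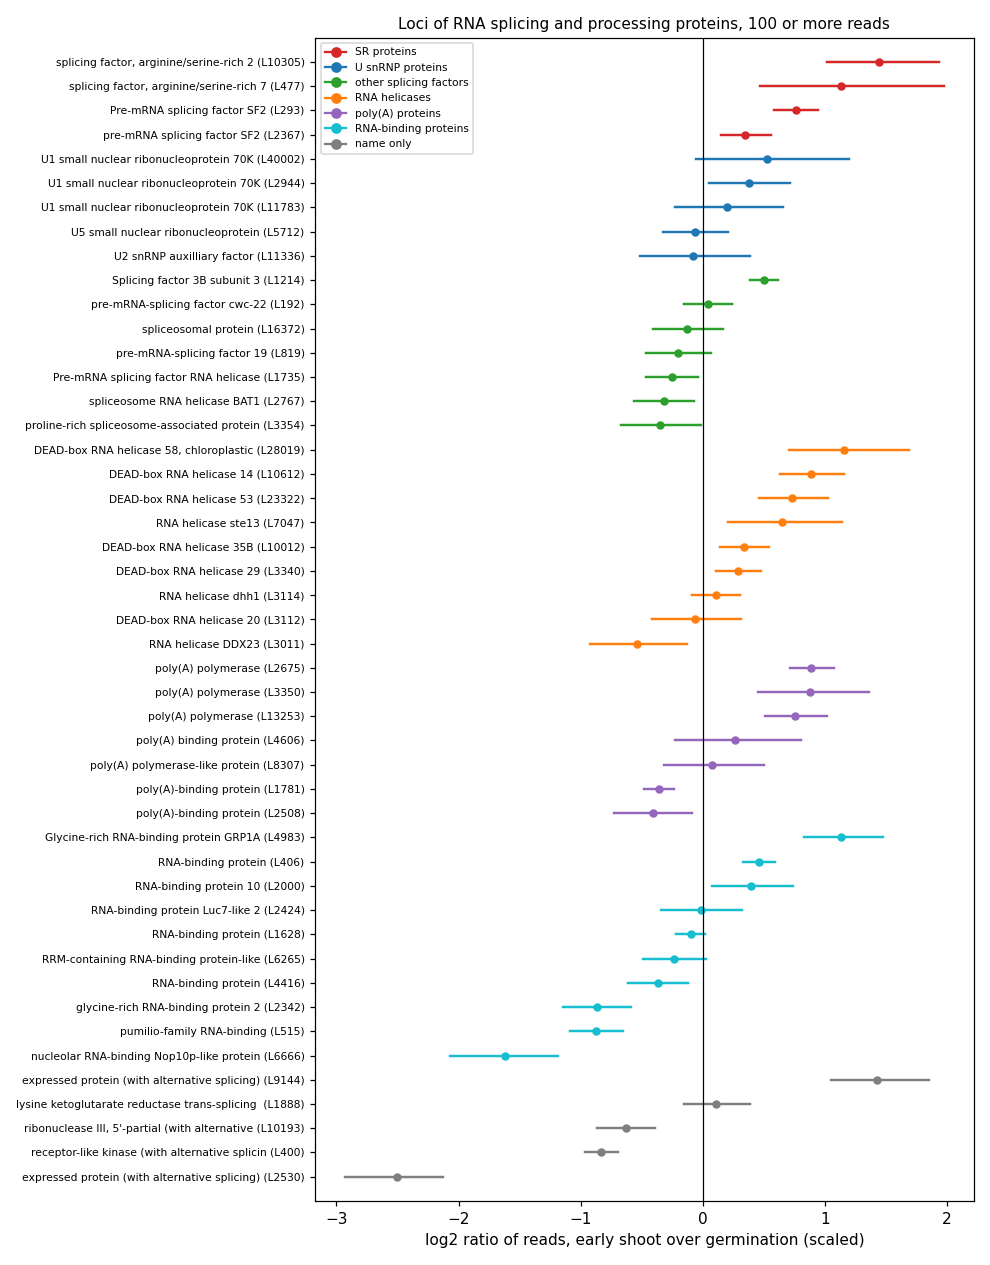
Log2 ratio of reads, early shoot over germination, for the 47 member loci with 100 or more reads when both libraries are added. Points are the ratios (1 read added to each count), bars the exact 95% intervals of counting error, colours the protein groups (name only, loci counted apart), and L with a number the locus. The 4 SR loci, 3 poly(A) polymerases and most numbered DEAD-box helicases have bars to the right of 0. The Nop10p-like locus lies far to the left among the RNA-binding proteins.

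Among the 8 other splicing factors a single protein stood apart. Subunit 3 of splicing factor 3B (Locus_1214), part of the U2 snRNP at the branch site, had 2316 reads in early shoot and 909 in germination, a log2 ratio of 0.50 (0.39 to 0.61). It was the member locus with most reads, and its 8 matching transcripts all had ratios above 0, from 0.33 to 0.65. Here and elsewhere, transcripts of the same locus share reads and are not independent of each other. Its other 17 transcripts together had 0.46.
No other splicing factor of this group was higher in early shoot by the G-fold value of its matching transcripts. The cwc-22 protein, known in yeast and human to join the active spliceosome (Locus_192), had 605 reads in early shoot and 326 in germination (0.04, from -0.15 to 0.24). Pre-mRNA-splicing factor 19 (Locus_819), the ubiquitin ligase of the complex that activates the spliceosome, had 299 reads in early shoot and 191 in germination (-0.20, from -0.47 to 0.07). The group sum of 4526 reads in early shoot and 2277 in germination, a log2 ratio of 0.14 (0.07 to 0.22), thus rested on splicing factor 3B, and without it the log2 ratio was -0.16.
Of the 8 loci, 2 were lower in early shoot, and both are helicases. BAT1, which acts when the U2 snRNP is recruited and in the export of mRNA, is named by 1 of the 73 transcripts of Locus_2767, with 336 reads in early shoot and 233 in germination (-0.32, from -0.57 to -0.07). With all its transcripts, 3455 reads in early shoot and 2782 in germination gave -0.54 and a G-fold value of -0.45. A second ATP-dependent helicase of pre-mRNA splicing (Locus_1735) had 452 reads in early shoot and 299 in germination (-0.25, from -0.47 to -0.04). DDX23 (Locus_3011), which in human releases U1 from the 5′ splice site, had 122 reads in early shoot and 98 in germination (-0.53, from -0.93 to -0.13).
The G-fold value of Locus_1735 was -0.0014, barely below 0, and it was 0 under all 5 other scalings. Locus_2767 stayed below 0 under 1 of these scalings and Locus_3011 under 3. These values are of the matching transcripts alone. With all transcripts, Locus_1735 had 1985 reads in early shoot and 1253 in germination, a log2 ratio of -0.18 and a G-fold value of -0.063. Locus_3011 then had 627 reads in early shoot and 480 in germination, a log2 ratio of -0.46 and a G-fold value of -0.26. Splicing factor CRS2 (Locus_18996), which in maize is needed for group II introns of the chloroplast, had 51 reads in early shoot and 17 in germination (0.68, from -0.08 to 1.62). Over all its transcripts Locus_18996 was higher in early shoot, with 331 reads in early shoot and 126 in germination (0.54, from 0.25 to 0.85). A spliceosomal protein (Locus_16372, -0.13) and a proline-rich one (Locus_3354, -0.35) had G-fold values of 0.

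DEAD-box helicases unwind short RNA pairings in splicing, ribosome assembly, decay and organelles. Of 6 loci named by a DEAD-box number, 5 were higher in early shoot and 0 lower. They had 2788 reads in early shoot and 1105 in germination and a log2 ratio of 0.49 (0.39 to 0.59). This set was made by name and is not the whole family. Among helicases without such a number, BAT1, Locus_1735 and DDX23 were lower, ste13 was higher and dhh1 was at 0. The largest ratio belonged to the chloroplast helicase 58 (Locus_28019), with 184 reads in early shoot and 45 in germination and RPKM of 18.3 in early shoot and 8.01 in germination. Its log2 ratio was 1.16 (0.71 to 1.69), and its 4 transcripts ranged from 0.61 to 1.68. Helicase 14 (Locus_10612) had 535 reads in early shoot and 160 in germination (0.89, from 0.64 to 1.16). Helicase 53 (Locus_23322), whose namesake in Arabidopsis acts in mitochondria, had 424 reads in early shoot and 141 in germination (0.73, from 0.46 to 1.03).
The ratios were smaller for helicases 35B (0.34) and 29 (0.29) than for these. Helicase 29 (Locus_3340) was the most abundant of the group, with 808 reads in early shoot and 367 in germination. Helicase 20 had 175 reads in early shoot and 101 in germination, with -0.06 (-0.42 to 0.31).
Relatives of the yeast helicases that promote removal of the cap from mRNA differed in size. The ste13 locus (Locus_7047) had 154 reads in early shoot and 54 in germination (0.65, from 0.21 to 1.14), and the dhh1 locus (Locus_3114) had 622 reads in early shoot and 321 in germination (0.10, from -0.09 to 0.31). Their intervals overlap. A putative type 1 helicase (Locus_44966) had 3 reads in early shoot and 2 in germination. Over the whole group of 10 loci named as helicases first of all, 6 were higher and 1 lower, and the sum of 3689 reads in early shoot and 1580 in germination had a log2 ratio of 0.38 (0.29 to 0.46).

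Among poly(A) proteins, loci higher in early shoot were polymerases and loci lower in early shoot were tail-binding proteins, while 1 locus of each kind had an interval across 0. Of 4 loci of poly(A) polymerase, 3 were higher in early shoot and 0 lower. The most abundant (Locus_2675) had 1083 reads in early shoot and 324 in germination and RPKM of 137 in early shoot and 71.9 in germination, a log2 ratio of 0.89 (0.71 to 1.08). Locus_3350 had 181 reads in early shoot and 54 in germination (0.88, from 0.45 to 1.36), and Locus_13253 had 533 reads in early shoot and 175 in germination (0.75, from 0.51 to 1.01). The locus of a poly(A) polymerase-like protein (Locus_8307) had 151 reads in early shoot and 79 in germination (0.08, from -0.32 to 0.50). Together the 4 had 1948 reads in early shoot and 632 in germination, a log2 ratio of 0.78 (0.65 to 0.91).
Of 3 loci of poly(A)-binding protein, 0 were higher and 2 lower in early shoot. Locus_1781 had 1296 reads in early shoot and 922 in germination, RPKM of 181 in early shoot and 227 in germination, and a log2 ratio of -0.36 (-0.48 to -0.23). Locus_2508 had 194 reads in early shoot and 143 in germination (-0.41, from -0.73 to -0.09) and was at 0 under some scalings. The third (Locus_4606) had 105 reads in early shoot and 48 in germination (0.27, from -0.22 to 0.81). Their sum of 1595 reads in early shoot and 1113 in germination had a log2 ratio of -0.33 (-0.44 to -0.22), and its interval does not overlap that of the polymerases. Over all transcripts of a locus, the log2 ratios were 0.84 for Locus_2675, 0.62 for Locus_3350, 0.81 for Locus_13253 and 0.08 for Locus_8307 among the polymerases. Among the tail-binding proteins they were -0.32 for Locus_1781 and -0.42 for Locus_2508. For Locus_4606 the log2 ratio was 0.17 (0.02 to 0.32), with 1065 reads in early shoot and 526 in germination. Its G-fold value was 0, so by that measure its direction is unknown. The single log2 ratio of the 7 poly(A) loci, 0.17 (0.09 to 0.26), sums over loci on both sides.

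**Figure D4:**
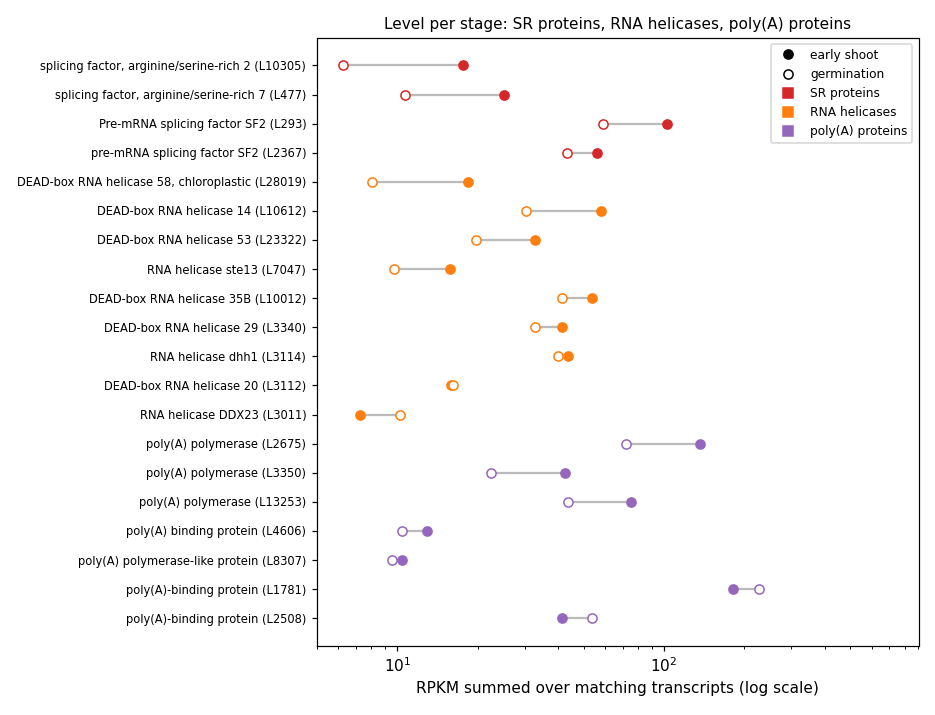
RPKM summed over the matching transcripts (log scale) of the SR, helicase and poly(A) loci with at least 100 reads. Filled circles are early shoot, open circles germination, and L with a number is the locus. The filled circle lies to the right for 4 SR loci and 4 poly(A) polymerases, and to the left for poly(A)-binding protein in Locus_1781 and Locus_2508 and for DDX23.

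The 14 loci of other RNA-binding proteins spread over both sides, with 3 higher and 5 lower in early shoot. Their sum of 5438 reads in early shoot and 3099 in germination had a log2 ratio of -0.04 (-0.10 to 0.03). Glycine-rich RNA-binding proteins, which join an RNA recognition motif to a glycine-rich tail and are known in plants from the response to cold, went apart. GRP1A (Locus_4983) had 398 reads in early shoot and 100 in germination and RPKM of 149 in early shoot and 65.8 in germination, a log2 ratio of 1.13 (0.83 to 1.48). A second transcript of that locus, unmatched and 595 bp long, had 72 reads in early shoot and 44 in germination (-0.15, from -0.70 to 0.44). Glycine-rich protein 2 (Locus_2342) had 219 reads in early shoot and 222 in germination, a log2 ratio of -0.87 (-1.14 to -0.59). Its 5 transcripts ranged from -1.42 to -0.42, and the most abundant of them was nearest to 0.
A pumilio-family protein (Locus_515), of a family that binds target mRNAs and lowers their translation or stability, had 348 reads in early shoot and 354 in germination. Its log2 ratio was -0.87 (-1.09 to -0.66), and with all 38 transcripts of the locus -0.69. The lowest ratio of a protein of RNA processing at this depth was that of the Nop10p-like protein (Locus_6666), a small subunit of the box H/ACA particles that guide pseudouridylation of ribosomal RNA. It had 70 reads in early shoot and 120 in germination, RPKM of 13.4 in early shoot and 42.1 in germination, a log2 ratio of -1.62 (-2.07 to -1.19) and a G-fold value of -1.12. It remained called under all 5 other scalings, with -1.04 the value nearest to the threshold.
Of the remaining RNA-binding loci, RNA-binding protein 10 (Locus_2000) was higher in early shoot, with 257 reads in early shoot and 108 in germination (0.40, from 0.07 to 0.74). A locus matched to a wheat RNA-binding protein (Locus_4416) was lower, with 332 reads in early shoot and 238 in germination (-0.37, from -0.61 to -0.12). The plasminogen activator inhibitor 1 RNA-binding protein (Locus_57913) had only 2 reads in early shoot and 7 in germination. In Locus_4345 the matching transcript had 2 reads in early shoot and 3 in germination, but all 39 transcripts together had 1397 reads in early shoot and 1781 in germination, a log2 ratio of -1.20 and a G-fold value of -1.08. That call rests on transcripts with other or no protein names. The matching transcripts of Locus_4369 (0.15), Locus_22169 (0.06) and Locus_6265 (-0.24) had log2 ratios with intervals across 0. Over all transcripts Locus_22169 was higher in early shoot, with 247 reads in early shoot and 79 in germination (0.78, from 0.43 to 1.18). Locus_4369 and Locus_6265 then had G-fold values of 0.
The small nucleolar ribonucleoprotein subunit (Locus_16096) had 36 reads in early shoot and 19 in germination (0.04, from -0.77 to 0.96).

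Per length, the most abundant members were RNA-binding proteins. An RNA-binding protein of 423 bp (Locus_1628) had RPKM of 452 in early shoot and 473 in germination, with 1507 reads in early shoot and 897 in germination and a log2 ratio of -0.10 (-0.22 to 0.02). Another (Locus_406) had RPKM of 343 in early shoot and 253 in germination, a log2 ratio of 0.46 (0.33 to 0.59). Over the 53 loci the median RPKM was 24.7 in early shoot and 20.7 in germination, and 6 loci in early shoot and 5 in germination were above 100.
The Luc7-like protein (Locus_2424), whose yeast counterpart belongs to the U1 snRNP, was level in its matching transcript (216 reads in early shoot, 121 in germination, -0.02). Its 9 other transcripts together had 0.46 (0.35 to 0.58).

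Of the 63 member loci, 52 (82.5%) had more than 1 transcript, compared with 76.9% of loci with at least 100 reads. The 63 held 718 transcripts in all. A locus became a member when any of its transcripts matched, so loci with many transcripts had more chances to enter. The comparison therefore shows no trait of the members. The matching transcripts took 31.3% of the reads of these loci, because most other transcripts are matched to hypothetical proteins or to none. By the G-fold value, no locus with at least 2 matching transcripts (30 loci) had these on both sides of 0. By the log2 ratio some did, such as Locus_4416 with -1.14 (-1.67 to -0.62) for transcript 3 and 0.21 (-0.22 to 0.67) for transcript 4, whose intervals do not overlap. With all their transcripts, 5 of 52 member loci had G-fold values on both sides (9.62%), against 2.56% of all loci with several transcripts. Among loci with 5 or more transcripts it was 5 of 40 (12.5%) against 6.71%. These shares are not matched for reads, and the rule favours loci with many transcripts. They therefore do not tell whether members differ from other loci. The 5 member loci were Locus_293 (SF2), Locus_2944 (U1-70K), Locus_2767 (BAT1) and, among those counted apart, Locus_2530 and Locus_984. In Locus_2767, transcript 59 had 85 reads in early shoot and 23 in germination (0.99), and transcript 69 had 163 reads in early shoot and 226 in germination (-1.32). Of the 47 member loci with transcripts that do not match, 5 had intervals of matching and other transcripts that did not overlap. They were Locus_293, Locus_4983, Locus_2424 and, among those counted apart, Locus_2530 and Locus_984. No such share was calculated over all loci, so whether this is unusual is not known. With all transcripts counted, the sign of the log2 ratio was the other one in 8 of the 63 loci.

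**Figure D5:**
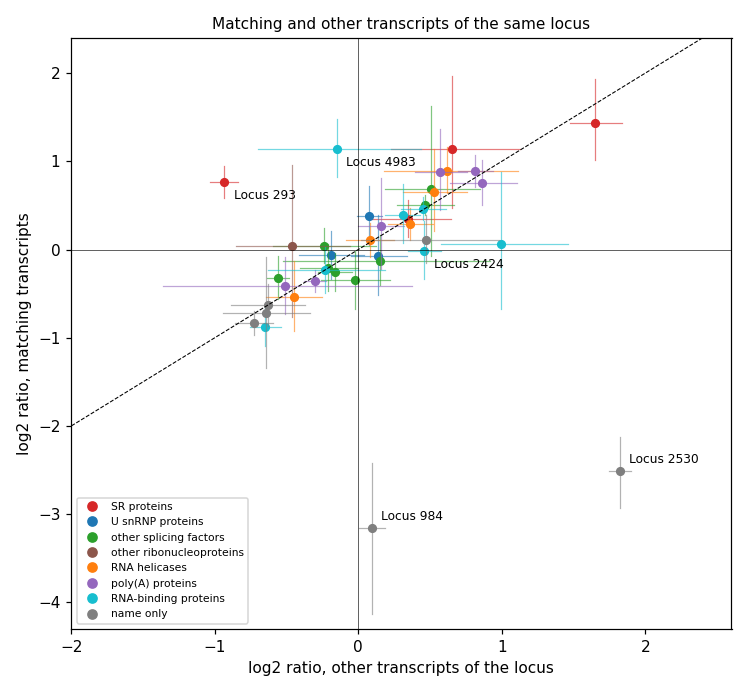
Log2 ratio (early shoot over germination) of the matching transcripts of a locus against that of its other transcripts, for the 40 loci with at least 50 reads in the matching and 50 in the other transcripts. Lines are 95% intervals of counting error, the dashed line marks equal ratios, and the 5 named loci have intervals that do not overlap. Most loci lie along the dashed line, whereas Locus_293 has matching transcripts above 0 and other transcripts below 0.

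The 10 loci counted apart had 2077 reads in early shoot and 1764 in germination, a log2 ratio of -0.61 (-0.70 to -0.52). Of these 1 was higher and 5 lower in early shoot. The most abundant, a receptor-like kinase (Locus_400), had 871 reads in early shoot and 860 in germination (-0.83, from -0.97 to -0.69). An expressed protein without a known role (Locus_9144) had 318 reads in early shoot and 65 in germination, a log2 ratio of 1.43 (1.05 to 1.85) and a G-fold value of 0.99. Under the 5 other scalings its G-fold value was 1.02 to 1.08, so that it was called higher under each of them. A ribonuclease III (Locus_10193), of a family that cuts double-stranded RNA, had 328 reads in early shoot and 282 in germination (-0.63, from -0.86 to -0.40). The loci counted apart carry the other 2 calls in the direction of germination, Locus_2530 and Locus_984. Neither description names a protein of RNA processing. Both calls rest on the matching transcripts. With all transcripts Locus_2530 had a G-fold value of 1.55 and was called higher in early shoot, and Locus_984 had a value of 0.

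Neighbouring steps of RNA metabolism were read from a list of descriptions for the exon junction, cap, export, decay, nucleolus, SKIP, peptidyl-prolyl isomerases and RNA polymerase II. It found 25 further loci, of which 6 were higher in early shoot, 8 lower and 11 at 0. No locus was found for the exon junction, cap or export. Many of the 25 are SKIP interacting proteins or isomerases, whose names give no step of RNA metabolism. Apart from Locus_599 of RNA polymerase II, every locus higher in early shoot was of these 2 kinds. The lower loci were of these and other kinds. Of background loci 10.1% were higher and 12.7% lower, and at 100 reads or more 35.7% and 30.2%. None of the 23 above the RPKM cutoff was called, against 1.39% of background loci called higher and 3.7% lower. The median log2 ratio over the 25 was -0.04. A locus of SKIP interacting protein 35 (Locus_63984) had 1 read in early shoot and 13 in germination. Its G-fold value was -1.63, but its RPKM in early shoot was 0.42. SKIP interacting protein 10 (Locus_12004) had a G-fold value of -0.98. The second largest subunit of RNA polymerase II, 135 kDa (Locus_599), had 5160 reads in early shoot and 1957 in germination (0.55, from 0.48 to 0.63). LSM7, of the ring that binds U6 snRNA or decaying mRNA (Locus_6473), had 114 reads in early shoot and 91 in germination (-0.53, from -0.93 to -0.11). The Dcp1-like decapping protein (Locus_7608) had 426 reads in early shoot and 297 in germination (-0.33, from -0.54 to -0.11). Fibrillarin, the methyltransferase of box C/D particles (Locus_1693), had 312 reads in early shoot and 185 in germination (-0.10, from -0.36 to 0.18), and NOP5, of the same particles (Locus_5653), had 487 reads in early shoot and 269 in germination (0.01, from -0.21 to 0.23). These nucleolar proteins were thus level where the Nop10p-like protein was lower.

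Markers of the tissue were checked by their summed reads. Knotted homeobox transcripts, which mark shoot meristems, had 2172 reads in early shoot and 1372 in germination (-0.19, from -0.28 to -0.09). Tubulin had 14094 reads in early shoot and 4821 in germination (0.70, from 0.65 to 0.75), and cyclin B, with 1 transcript, 227 reads in early shoot and 18 in germination (2.81, from 2.12 to 3.59). PCNA and histone H4 are named in no description. Of green leaf, chlorophyll a-b binding proteins had 278 reads in early shoot and 116 in germination (0.41, from 0.10 to 0.74), the small chain of RuBisCO 141 in early shoot and 78 in germination (0.01, from -0.40 to 0.42) and photosystem proteins 3749 in early shoot and 2365 in germination (-0.18, from -0.26 to -0.11). The markers of dividing or meristem cells thus did not move together. Tubulin and cyclin B went in the direction of the SR proteins, the numbered DEAD-box helicases and poly(A) polymerases, and knotted homeobox in the other. The part of any marker in these results was not tested.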

How the data were processed

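RNA from pooled rhizome lateral buds of each stage gave 1 library, and per the labels TopHat2 2.0.8b and Cufflinks 2.2.1 belong to the submitters' processing. The study's methods describe unique mapping to the draft genome, Cufflinks gene models and a search of predicted proteins against rice. The tables differ from this: the transcript names have the fields of a de novo assembly, and the matches include maize, sorghum and grape. For these tables, the assembler, the counter, the protein search and the way reads were divided among transcripts are not given in the sources used here. The deposited tables give raw read counts per transcript, which the authors did not normalize, and an RPKM that the authors calculated from count, length and table total (recalculated to within 0.0483). The length in bp of each transcript is deposited too.

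Transcripts were taken by the words of their protein description, an exclusion of virus entries removed 0 of them, and reads were summed per locus and protein group. The scaling factor was the median of the ratio, early shoot over germination, over transcripts with reads in both (1.8). The G-fold value is modelled on the program Gfold named in the study's methods and was calculated without it, from a beta distribution with 1 read added to each count and a quantile of 0.01. A locus was called beyond 1.0 in either direction with summed RPKM above 1.0 in both libraries. Intervals are exact 95% Clopper-Pearson intervals and cover counting error only, since reads amplified by PCR are not independent molecules. With 1 library per stage there is no test and no p-value. Log2 ratios of loci and transcripts have 1 read added, and those of summed groups have none. The calculation was tested on simulated data.

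The members and lists were chosen with earlier results of these data known. By rule the text names loci called with at least 100 reads, the 5 highest and 5 lowest log2 ratios at that depth, and the most abundant locus of each group. Further members were picked with their values in view, to show the spread of a protein family. Python 3.11.15, pandas 2.3.3, NumPy 2.4.6, SciPy 1.17.1, matplotlib 3.10.9 and edgeR 4.0.16 under R 4.3.3 (TMM factor only) were used. Alternatives were other scalings, quantiles, thresholds, cutoffs and depths, all transcripts of a locus and its most abundant matching transcript.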

Additional observations from a re-analysis of the deposited data

How the results depend on the processing

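No paired analysis was possible because each stage has 1 library, and no replicate could be left out. The number of member loci called higher in early shoot, 0 in the report, was 1 with table totals, the TMM factor or totals without the 10 most abundant transcripts, 2 with the upper quartile, the median ratio at 50 reads or more, a quantile of 0.05 or all transcripts of the locus, 5 with the plain log2 ratio or log2 of RPKM with 0.1 or 1 added, and 19 with a threshold of 0. The number called lower, 3, was 5 with the plain log2 ratio or log2 of RPKM with 0.1 added and 4 with 1 added. With a threshold of 2.0, at least 100 reads, all transcripts or the most abundant matching transcript it was 2. It was 15 with a threshold of 0 and 1 without the loci counted apart. In alternatives chosen after the data were seen, the 19 loci above 0 and 15 below it became 33 and 30 by the plain log2 ratio and 36 and 27 by log2 of RPKM with 0.1 or 1 added, and the median ratio at 50 reads or more left 9 below 0. Smaller changes of the counts above and below 0 are not listed.

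The log2 ratio of all members (0.09) was 0.12 with table totals or totals without the 10 most abundant transcripts, 0.17 with the upper quartile or the median ratio at 50 reads or more, 0.13 with all transcripts, 0.044 without Locus_1214 and 0.18 without the loci counted apart. SR proteins had 0.13 and helicases 0.28 with all transcripts. Other splicing factors had 0.23 with the upper quartile or the median ratio at 50 reads or more, and turned to -0.13 with all transcripts, -0.11 with the most abundant matching transcript and -0.16 without Locus_1214. Poly(A) proteins had 0.26 with the median ratio at 50 reads or more and 0.60 without Locus_1781. RNA-binding proteins (-0.04) had 0.046 with the upper quartile, 0.049 with the median ratio at 50 reads or more, -0.14 with all transcripts and 0.073 with the most abundant matching transcript. The loci counted apart (-0.61) turned to 0.56 with all transcripts, through Locus_2530 (1.64), and had -0.48 with the most abundant matching transcript and -0.43 without Locus_400. Among single loci, Locus_293 turned to -0.50 with all transcripts. Except for fewer transcripts or loci counted, the causes were not tested. Other scalings raised every log2 ratio by 0.03 to 0.09. Low depth leaves wide intervals: that of snRNP protein G (15 reads in all) runs from -2.31 to 1.04, and that of Locus_57913 (9 reads in all), below 0, from -5.96 to -0.26.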

Other observations

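In Locus_2530, counted apart because its description only notes alternative splicing, the matching transcript 15 (1749 bp) had 70 reads in early shoot and 223 in germination, a log2 ratio of -2.51 (-2.93 to -2.13). Transcript 21 of the same locus (2231 bp) had 2249 reads in early shoot and 259 in germination, with 2.27 (2.08 to 2.46). Of its 24 transcripts, 8 were higher in early shoot and 7 lower, and all together had 9767 reads in early shoot and 1746 in germination, a log2 ratio of 1.64. In Locus_984, whose 2 matching transcripts name a splice form of an acyl-CoA thioesterase, these had 15 reads in early shoot and 78 in germination (-3.15, from -4.13 to -2.42). The 124 transcripts of that locus, which include matches to other proteins, held 12 that were higher in early shoot and 30 that were lower.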
